A study of Homo sapiens with 60 samples.

Results

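Nuclear oxidative phosphorylation genes are the genes of the cell nucleus that encode subunits of the mitochondrial respiratory chain and ATP synthase. They were chosen here by symbol from the protein-coding genes of a table of 60675 human genes: symbols beginning with NDUFA, NDUFB, NDUFC, NDUFS or NDUFV without the NDUFAF assembly factors, SDHA to SDHD, symbols beginning with UQCR, COX4I, COX5, COX6, COX7, COX8, ATP5F1, ATP5M or ATP5P, and CYC1 and CYCS. This rule gave 91 members. They were 38 genes of complex I, 4 of complex II, 10 of complex III, 19 of complex IV, 19 of complex V and 1 for cytochrome c, with NDUFA4 and NDUFA4L2 placed in complex IV. A further 180 of the 271 genes with such symbols were not protein-coding and were left out.

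Complex I takes electrons from NADH and complex II from succinate, both pass them to ubiquinone, complex III hands them to cytochrome c, and complex IV gives them to oxygen. Complexes I, III and IV pump protons, and complex V (ATP synthase) makes ATP from the gradient. A few core subunits of complexes I, III, IV and V are encoded by mitochondrial DNA, and the rest come from nuclear genes, so a complex needs transcripts from both genomes.

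The libraries were RNA sequencing of A549, an established human lung adenocarcinoma cell line, after 24 h with hot-water plant extracts. Menthae Herba and Saposhnikoviae Radix are single herbs. The other extracts were the mixed decoctions Guibi-tang and Saengmaek-san, then Okbyeongpung-san and Soyo-san, and lastly Soshiho-tang. Each was given at 500, 100 and 20 µg/mL. All but Soshiho-tang had 3 libraries per dose, Soshiho-tang had 1 per dose, and the vehicle (DMSO) had 3, which made 60 libraries. The sample labels gave 0.1% DMSO and the series description 2%, and the description also said that toxic extracts were given at lower doses, while every label used here read 500, 100 or 20. Libraries with little RNA had been excluded by the submitters. Wortmannin and ethanol extracts, also mentioned there, were not analysed here. The labels do not say whether the replicates were grown separately. The p-values therefore measure only the spread between these libraries, which may be technical, and every result is for 1 cell line.

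Total counts ran from 18330631 to 35308811 per library, and the 3 vehicle libraries (29047074 to 35308811) were among the deepest. The keratins KRT7, KRT8 and KRT18 and the aldo-keto reductase AKR1B10, which mark this line, were detected in all 60 libraries. KRT8 stood at 2660 to 3640 CPM (counts scaled to a common library size). Of the 9 epithelial markers listed, EPCAM (3.76 to 6.23 CPM), KRT19 (22.4 to 29.1 CPM) and CDH1 (26.5 to 41.7 CPM) were the lowest. Of 10 markers of immune, endothelial and stromal cells, the T cell gene CD3E had no count in any library and the leukocyte gene PTPRC reached at most 0.0516 CPM, while the macrophage marker CD68 stood at 6.62 to 19 CPM with counts in all 60 libraries. The stromal collagen COL1A1 stood at 25.9 to 40.7 CPM, and the 10 markers together summed to 43.6 to 58 CPM in the first 31 libraries of the table and 41.3 to 55.5 CPM in the last 29.

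Promoters of respiratory genes are known for sites of the factors NRF1, ETS-family GABP and YY1. RefSeq promoters (GRCh38.p14, 250 bases before to 50 after the start) were matched for 71 of the 91 members. The motifs, each of 7 letters, were searched on both strands. The NRF1 core GCATGCG was found in 15 of 71 (21.1%), against 7.37% of the promoters of all genes tested and 4.74% of all promoters matched to the table. The ETS motif CCGGAAG was found in 21 (29.6%, against 21% and 12.2%) and the YY1 core ATGGCGG in another 21 (29.6%, against 11.8% and 6.66%). At least 1 of these motifs was found in 40 members (56.3%, against 34.3% and 20.5%). A match is a string of letters and not a measured site. The sequences below show such motifs upstream of the electron carrier cytochrome c and of a pair of complex IV subunits that come up again in the results. They end where the first GENCODE 29 exon begins, and capitals mark the NRF1 core and, near the end of COX5B only, the ETS motif. For CYCS the stretch is chr7:25125362-25125510 (minus strand), for COX5B chr2:97645812-97646039 (plus) and for COX6A1 chr12:120437863-120438089 (plus). In COX6A1 the first capital run is 2 overlapping matches, 1 on each strand, since the motif is nearly its own reverse complement.
CYCS: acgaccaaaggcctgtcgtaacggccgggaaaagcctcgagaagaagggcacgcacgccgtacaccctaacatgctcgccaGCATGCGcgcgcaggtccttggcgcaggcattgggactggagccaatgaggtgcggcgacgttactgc
COX5B: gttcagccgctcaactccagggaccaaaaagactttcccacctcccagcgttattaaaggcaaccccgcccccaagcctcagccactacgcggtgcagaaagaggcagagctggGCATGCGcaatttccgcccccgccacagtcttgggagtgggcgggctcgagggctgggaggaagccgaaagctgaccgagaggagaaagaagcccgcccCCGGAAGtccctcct
COX6A1: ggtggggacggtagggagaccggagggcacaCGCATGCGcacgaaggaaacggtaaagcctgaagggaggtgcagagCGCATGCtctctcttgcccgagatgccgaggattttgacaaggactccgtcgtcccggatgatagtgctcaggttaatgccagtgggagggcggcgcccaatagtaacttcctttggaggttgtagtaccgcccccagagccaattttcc

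In vehicle cells almost the whole apparatus was expressed. Of the 91 members, 85 passed the filter on low counts. The 6 that did not were COX4I2, COX6A2, COX7A1, COX7B2, COX8C and ATP5MGL, 5 of them tissue-restricted isoforms of complex IV. COX6A2, COX7B2 and COX8C had 0 counts in all 60 libraries, COX4I2 had 1 count in 1 library, ATP5MGL had at most 1 count in each of 15 libraries, and COX7A1, the isoform of heart and skeletal muscle, reached 0.352 CPM. The ubiquitous partners of these isoforms were abundant. COX4I1 stood at 163 ± 3.15 CPM, COX6A1 at 174 ± 9.87 CPM, COX7A2 at 61 ± 1.31 CPM and COX8A at 137 ± 4.19 CPM in vehicle (SD, n = 3). COX7A2L, a relative of COX7A2 known for its part in respiratory supercomplexes, was at 71 ± 2.15 CPM, and COX7B was at 81.6 ± 4.04 CPM.

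To compare levels between genes, CPM was divided by transcript length in kb, taken as the median of each gene's coding transcripts in GENCODE 29. On this scale the median member of complex I stood at 52.2 CPM per kb, of complex II at 51.2, of complex III at 81.6, of complex IV at 131 and of complex V at 112 in vehicle. In complex I the iron-sulfur subunit NDUFS8 (151 ± 6.5 CPM per kb) and NDUFC2 (138 ± 1.51) were highest. NDUFV3 (9.32 ± 0.351) and the readthrough NDUFC2-KCTD14 (0.53 ± 0.462), which joins NDUFC2 to its neighbour, were lowest. The 2 highest and 2 lowest in complex II were the membrane anchor SDHC (229 ± 1.46) and the iron-sulfur subunit SDHB (51.3 ± 0.891), then the other anchor SDHD (51 ± 2.02) and the flavoprotein SDHA (50.1 ± 0.102). The value of SDHC rests on a median transcript of only 460 bases, and its CPM, 106 ± 0.671, was near that of SDHA at 106 ± 0.216. On the scale per kb SDHD did not differ from SDHB or SDHA beyond their spread. The means of SDHB and SDHA were close, but lay further apart than their SDs combined.

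In complex III the small subunits UQCRB (163 ± 5.4 CPM per kb) and UQCRH (130 ± 1.41), the hinge protein, were highest, and UQCR11 (53.8 ± 1.91) and the UQCRH-like gene UQCRHL (3.15 ± 0.11) lowest. In complex IV, COX6B1, which faces the intermembrane space, was highest at 496 ± 8.23 CPM per kb, followed by COX6A1 at 305 ± 17.3. The lowest that passed the filter were NDUFA4L2 at 1.52 ± 0.284 and the testis isoform COX6B2 at 0.468 ± 0.145. Their partners NDUFA4 and COX6B1 stood at 50.1 ± 1.19 and 496 CPM per kb. In complex V the catalytic beta subunit ATP5F1B (495 ± 11.9 CPM per kb) and the membrane subunit ATP5MF (371 ± 21.6) were highest, and ATP5PB (46.6 ± 0.942) and the readthrough ATP5MF-PTCD1 (4.38 ± 0.451) lowest. COX6B1 and ATP5F1B, the pair at the top of the whole set, did not differ beyond their spread. The c subunit, which forms the rotor ring, is encoded by 3 genes whose mature protein is the same, and all were used: ATP5MC2 at 240 ± 12.2, ATP5MC1 at 201 ± 2.34 and ATP5MC3 at 161 ± 5.78 CPM per kb. CYCS stood at 273 ± 4.32 CPM per kb. For 27 members, among them ATP5MF, SDHA, COX6A1 and UQCRFS1, more than 50% of libraries held an estimated count that was not whole, so their reads were shared with other genes or pseudogenes and their levels are less certain.

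**Figure D1:**
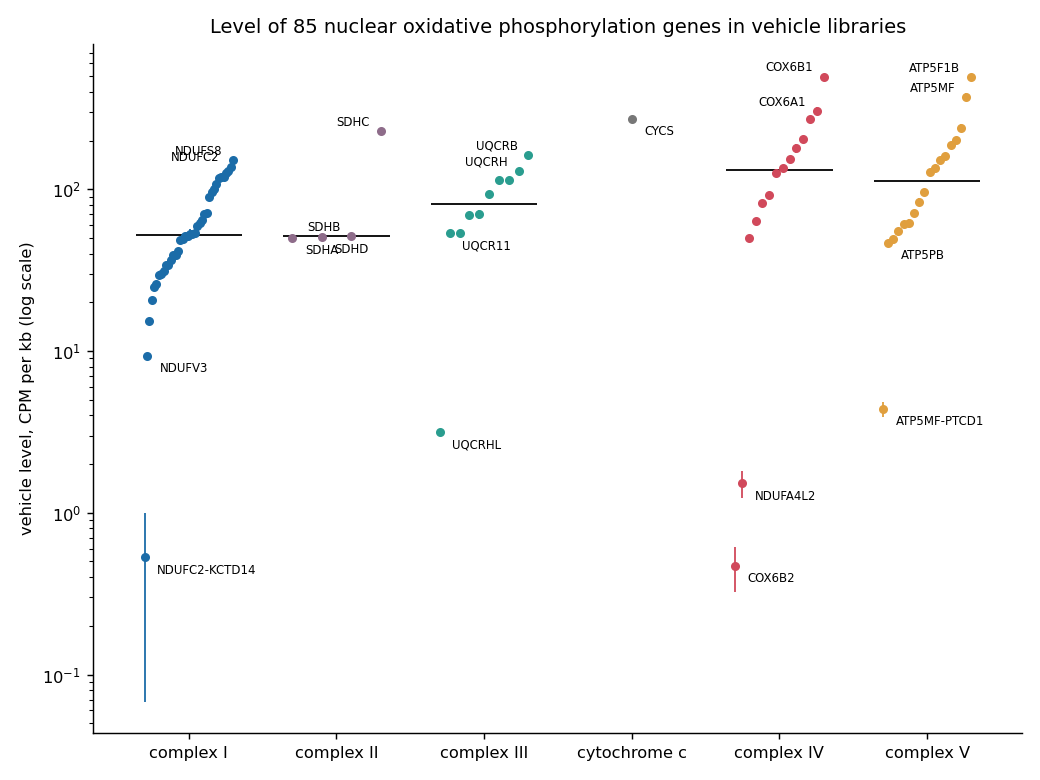
Vehicle level of the 85 members that passed the filter, in CPM per kb on a log axis, by complex. Points are means of 3 libraries, bars their SD, horizontal lines complex medians, and the 2 highest and 2 lowest genes of each complex are named; COX6B1 and ATP5F1B lie at the top and COX6B2 and NDUFC2-KCTD14 at the bottom.

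The first question was whether an extract changed these genes against the vehicle. Over 18 comparisons with the vehicle and 6 of 500 with 20 µg/mL, the 85 members gave 2040 tests, and 5 passed an adjusted p of 0.05 (edgeR quasi-likelihood test, Benjamini-Hochberg over 17256 genes). That is 0.245% of the member tests, against 1.67% (6926 of 414144) over all genes, and 175 member tests had an unadjusted p under 0.05. All 5 were lower with the extract. They were COX6B2 with Menthae Herba at 500, ATP5F1B and UQCRC2 with Soyo-san at 500, and CYCS and UQCRH with Soyo-san at 20 µg/mL. The 18 comparisons share the same 3 vehicle libraries and are not independent. The median standard error of a member's log2 fold change was 0.0831. For Menthae Herba at 500 it was 0.0826 here and 0.0431 in a fit of the first 31 libraries alone, described further on. In that fit 15.3% of members and 15.2% of all genes were called, so the low member share did not hold there.

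COX6B2 (ENSG00000160471, chr19:55349306-55354814, minus strand) stood at 0.657, 0.621 and 1.06 CPM in the vehicle libraries and at 0.207, 0.441 and 0.411 CPM with Menthae Herba at 500. The groups did not overlap, and all 3 treated libraries lay below the lowest vehicle library. It fell by 1.11 ± 0.316 (SE) on the log2 scale (adjusted p = 0.0224), in a comparison where 6.77% of all genes passed and 1 of 85 members did. The gene is close to the detection limit, with at most 31.9 counts in any library. The call was lost without the third vehicle library (log2 fold change -0.826, adjusted p = 0.184) or without the first treated library (-0.826, adjusted p = 0.198). With no filter on low counts it was not called either (-1.11, adjusted p = 0.0663), and DESeq2 gave no adjusted p.

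With Soyo-san the called members were abundant and the changes small. ATP5F1B (ENSG00000110955, chr12:56638175-56646068, minus strand) was at 894, 900 and 934 CPM in vehicle and at 698, 779 and 789 CPM at 500. It fell by 0.266 ± 0.0779 on the log2 scale (adjusted p = 0.0301). UQCRC2 (ENSG00000140740, chr16:21952660-21983660, plus strand), a core protein of complex III, was at 162, 160 and 163 CPM in vehicle and at 150, 150 and 148 CPM at 500, and fell by 0.108 ± 0.0306 (adjusted p = 0.0243). In neither gene did the groups overlap. These were 2 of 85 members, where 6.03% of all genes passed.

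At 20 µg/mL of Soyo-san, CYCS (ENSG00000172115, chr7:25120091-25125361, minus strand) was at 222, 217 and 233 CPM against 266, 262 and 270 CPM in vehicle, and fell by 0.247 ± 0.0677 (adjusted p = 0.0436). UQCRH (ENSG00000173660, chr1:46303631-46316776, plus strand) was at 67.6, 64.9 and 74.6 CPM against 79.5, 78.8 and 77.8 CPM, and fell by 0.188 ± 0.0523 (adjusted p = 0.0471). In both genes every treated library lay below every vehicle library. These were 2 of 85 members, where 1.99% of all genes passed.

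All Soyo-san libraries came after a boundary in the table and all vehicle libraries before it. After a term for this library order, described further on, ATP5F1B moved to a log2 fold change of -0.0269 (adjusted p = 0.832), CYCS to -0.096 (adjusted p = 0.465) and UQCRH to -0.122 (adjusted p = 0.235), and UQCRC2 stood at -0.0997 (adjusted p = 0.0485). UQCRC2 was not called with no filter on low counts (-0.114, adjusted p = 0.38). Treatment with Soyo-san and library order cannot be told apart by these comparisons. When libraries were left out in turn, ATP5F1B lost its call in 5 of 6 cases, with an adjusted p above 0.05. Its log2 fold change lay between -0.213 and -0.299. The call of UQCRC2 held only without vehicle replicate 2 (-0.102 to -0.116 over all cases). The calls of CYCS (-0.225 to -0.278) and UQCRH (-0.146 to -0.248) held only without Soyo-san 20 replicate 3.

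The other 15 comparisons with the vehicle gave no member call. In these, 0.974% and 0.382% of all genes passed with Menthae Herba at 100 and 20, and 1.56%, 0.666% and 0.991% with Saposhnikoviae Radix at 500, 100 and 20. For Saengmaek-san the shares were 0.614%, 0.666% and 0.452%, for Guibi-tang 4.42%, 1.41% and 1.35%, and for Okbyeongpung-san 3.39%, 1.37% and 1.09%. With Soyo-san at 100 µg/mL 1.77% of all genes passed. At an unadjusted p under 0.05 the members numbered between 0 (Saengmaek-san at 20) and 20 (Okbyeongpung-san at 500) of 85.

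At 500 µg/mL the medians of the 85 members lay near 0 with the herbs and somewhat below it with Guibi-tang, Soyo-san and Okbyeongpung-san. They were -0.0045 (log2, 45 members lower and 40 higher) with Menthae Herba at 500 and -0.0265 with Saposhnikoviae Radix at 500. With Guibi-tang at 500 the median was -0.063 and 73 members were lower, with Soyo-san at 500 -0.0687 and 61 lower, and with Okbyeongpung-san at 500 -0.0863 and 64 lower. All Soyo-san and Okbyeongpung-san libraries lie across the boundary from the vehicle, and with the library-order term their medians at 500 were -0.0269 (48 lower) and -0.0316 (51 lower). Guibi-tang at 500 has libraries on both sides, and its median with the term was -0.0674 (64 lower). Within the first 31 libraries it was -0.0617 (67 lower). The medians of all genes in these 5 comparisons without the term lay between -0.00075 and 0.00691. Low member medians were not confined to 500 or to these decoctions. Without the term they were -0.0332 with Saengmaek-san at 500, -0.0666 (63 lower) at 100, and -0.0433 with Saposhnikoviae Radix at 20. At 20 they were -0.0852 with Soyo-san, -0.0556 with Guibi-tang and -0.0607 with Okbyeongpung-san. Between replicates the member median had an SD of 0.0518.

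**Figure D2:**
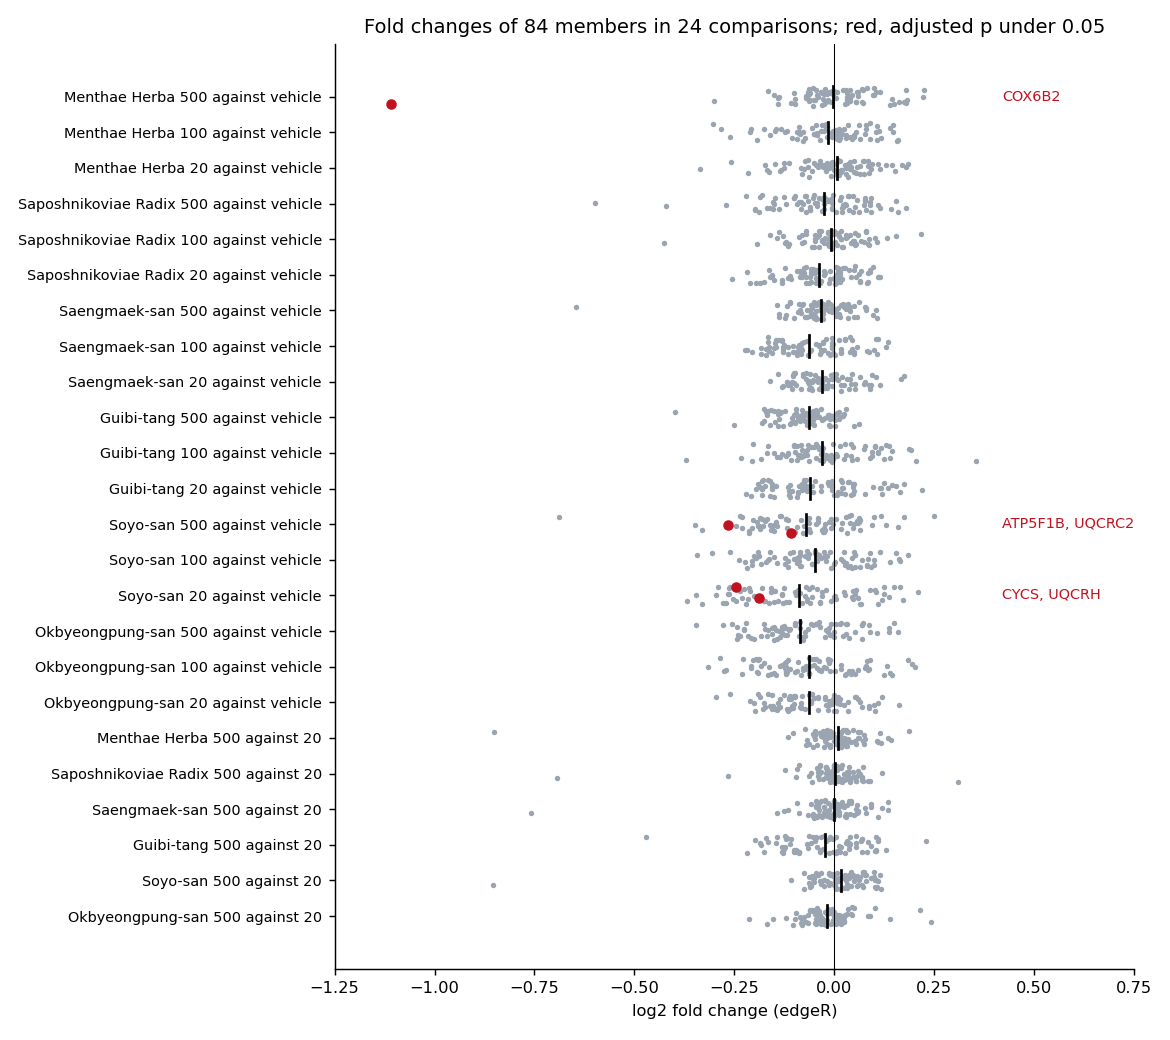
Log2 fold changes (edgeR) of 84 members in 24 comparisons, 1 point per gene, with the median as a black bar and the 5 calls in red and named. The readthrough NDUFC2-KCTD14, with counts near 0, is not drawn; most points lie within 0.2 of 0, and the 500 against 20 rows hold no call.

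The second question was whether members followed the dose, which needs no vehicle library. No member was called between 500 and 20 µg/mL in any of the 6 extracts. Of all genes, 2.43% passed for Menthae Herba, 0.0811% for Saposhnikoviae Radix, 0% for Saengmaek-san, 0.997% for Guibi-tang, 0.614% for Soyo-san and 0.0985% for Okbyeongpung-san. At an unadjusted p under 0.05 there were 1, 2, 2, 6, 1 and 2 members of 85 in that order. Member medians ran from -0.0262 (Guibi-tang) to 0.0142 (Soyo-san) on the log2 scale.

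DESeq2 and edgeR with no filter on low counts gave other numbers of member calls. DESeq2 called 4 members with Soyo-san at 500 (8.69% of all genes) and 3 at 20 (4.26%), 1 with Menthae Herba at 500 (9.19%), 1 with Guibi-tang at 500 (6.55%), and 2, 1 and 1 with Okbyeongpung-san at 500, 100 and 20 (5.1%, 2.49% and 2.37%). It called 0 members in the other 11 comparisons with the vehicle, with 0 to 15 at an unadjusted p under 0.05. There it called 1.68% and 1.05% of all genes with Menthae Herba at 100 and 20, 3.35%, 1.27% and 2% with Saposhnikoviae Radix and 1.42%, 1.41% and 0.948% with Saengmaek-san. It called 2.65% and 2.86% with Guibi-tang at 100 and 20 and 3.13% with Soyo-san at 100. Between 500 and 20 it called 0 members in each extract (2, 2, 2, 6, 1 and 2 at an unadjusted p under 0.05 in the order above), where 3.08%, 0.14%, 0.00267%, 1.49%, 0.685% and 0.0516% of all genes passed.

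With no filter, edgeR had 88 members to test and called most with Soyo-san, 16, 11 and 24 at 500, 100 and 20 (3.42%, 1.96% and 2.88% of the 37473 genes then tested). Calls numbered 11, 11 and 5 with Okbyeongpung-san (2.11%, 2.02% and 1.42%), 1, 3 and 3 with Guibi-tang (1.86%, 1.93% and 1.66%) and 3, 1 and 2 with Saposhnikoviae Radix (1.47%, 0.68% and 0.819%). They numbered 1, 3 and 0 with Menthae Herba (2.84%, 0.971% and 0.683%) and 1, 0 and 0 with Saengmaek-san (0.499%, 0.817% and 0.571%), where the zeros had 13, 24 and 9 members at an unadjusted p under 0.05. Between 500 and 20 it called 2 members with Guibi-tang (1.11%) and 1 with Saengmaek-san (0.141%). It called 0 with Menthae Herba (1.21%), Saposhnikoviae Radix (0.27%), Soyo-san (0.472%) and Okbyeongpung-san (0.248%), with 2, 4, 1 and 5 at an unadjusted p under 0.05. The number of member calls with Soyo-san thus depends on the filter, and the cause was not tested.

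The 12 members followed by name in every comparison moved little with dose. Over the 6 extracts their log2 differences between 500 and 20 lay between -0.0891, for the Rieske iron-sulfur protein UQCRFS1, and 0.118, for the complex I subunit NDUFS7. The flavoprotein SDHA ranged from -0.0223 to 0.0112 (median SE 0.0698), the beta subunit ATP5F1B from -0.0487 to 0.0264 (0.0779) and the alpha subunit ATP5F1A from -0.0434 to 0.00984 (0.0653). COX4I1, the largest nuclear subunit of complex IV, ranged from -0.00382 to 0.0591 (0.105), and CYCS from -0.04 to 0.0621 (0.0678). The lowest adjusted p among the 12 members was 0.657, for UQCRFS1.

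COX6B2 had the largest dose differences among members other than NDUFC2-KCTD14 and was called in none. With Soyo-san it stood at 0.299, 0.575 and 0.535 CPM at 500 and at 1.09, 0.781 and 0.714 CPM at 20, a log2 difference of -0.853 ± 0.303 (adjusted p = 0.333). With Menthae Herba it stood at 0.207, 0.441 and 0.411 CPM at 500 and at 0.737, 0.609 and 0.585 CPM at 20 (-0.851 ± 0.333, adjusted p = 0.23). In both extracts the doses did not overlap.

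The log2 difference of COX6B2 was -0.758 ± 0.299 with Saengmaek-san and -0.694 ± 0.293 with Saposhnikoviae Radix, where the groups overlapped, with unadjusted p of 0.0149 and 0.0225. With Guibi-tang it was -0.219 ± 0.306, and with Okbyeongpung-san 0.139 ± 0.286. COX6B1, its abundant partner, had no call in any of the 24 comparisons.

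**Figure D3:**
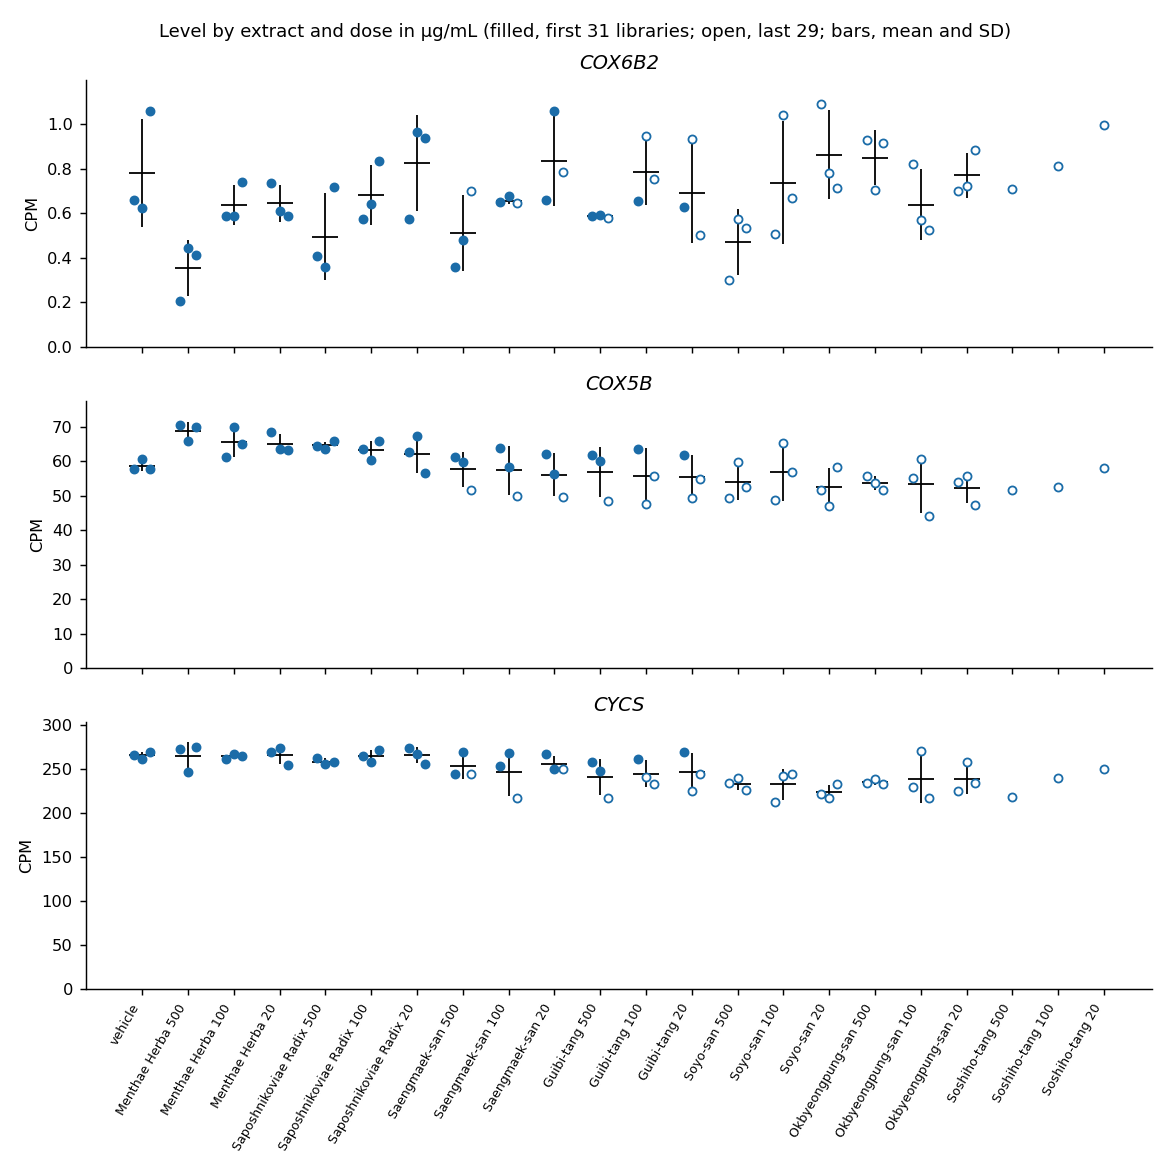
CPM of COX6B2, COX5B and CYCS in each of 60 libraries by extract and dose (µg/mL). Filled points are the first 31 libraries of the table and open points the last 29, with mean and SD in black for groups of 3; COX6B2 is lowest with Menthae Herba at 500, COX5B is highest there, and open points of CYCS lie mostly under filled ones.

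The members also differed by library order. The columns of the table follow the replicates, and a boundary after the first 31 separates the libraries in expression. The labels give no batch for it. The boundary was located in these data, so the differences across it are given as descriptions with no test. The 3 doses of Saengmaek-san and of Guibi-tang have libraries on both sides, which makes 6 groups in which the difference can be taken within extract and dose. Of the 85 members, 27 were higher after the boundary in all 6 groups and 39 lower in all 6. That is 77.6% with the same sign in all 6, where 39.8% of all genes had it, and the share was 79% for 81 cytosolic ribosomal protein genes and 57.7% for 78 mitochondrial ones. The median size of the difference was 0.201 on the log2 scale, against 0.131 over all genes, and 43 members exceeded 0.2.

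Members of the same complex lay on both sides. In complex I, 13 were higher in all 6 groups and 16 lower. The most negative was the accessory subunit NDUFB2 (ENSG00000090266, chr7:140690777-140722790), at -0.493 ± 0.0564 (SE). Its lowest, median and highest values were 44.5, 49.4 and 55.3 CPM in the first 31 libraries and 30.6, 38.3 and 43.2 CPM in the last 29, with no overlap. NDUFA2 followed at -0.391 ± 0.0618. NDUFS1, the largest iron-sulfur subunit (ENSG00000023228), differed by -0.297 ± 0.0251, and it and NDUFA9 (-0.287 ± 0.0335) also had no overlap between the 31 and the 29 libraries. These were 3 of 85 members without overlap, where 0.406% of all genes had none. The NADH-binding subunit NDUFV1 (-0.192 ± 0.0375) and the iron-sulfur subunit NDUFS7 (-0.189 ± 0.0571) were also lower in all 6 groups. On the other side were NDUFA7 (0.365 ± 0.0428), NDUFB10 (0.341 ± 0.0361) and NDUFS8 among others. NDUFC2-KCTD14 had the largest coefficient of complex I, 0.409, with an SE of 0.924, and is uninterpretable at its level.

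In complex II all 4 genes were lower, from SDHB at -0.0165 ± 0.0336 to SDHD at -0.289 ± 0.0339, with SDHA (-0.183 ± 0.0325) and SDHC (-0.141 ± 0.0252) between, and 3 of the 4 were lower in all 6 groups. In complex III the small subunits UQCR10 (0.36 ± 0.0309) and UQCRB (0.346 ± 0.0375) were higher, and UQCRQ (-0.46 ± 0.0543) and UQCR11 (-0.224 ± 0.0509) lower. Of its catalytic subunits, UQCRFS1 was higher in all 6 groups (0.173 ± 0.0272), and cytochrome c1, CYC1, was near 0 (-0.0692 ± 0.0326). CYCS was lower in all 6 groups, at -0.151 ± 0.0342. It stood at 245, 265 and 276 CPM (lowest, median, highest) in the first 31 libraries and at 213, 234 and 271 CPM in the last 29, which overlap.

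In complex IV the most negative were NDUFA4 (-0.353 ± 0.0439) and COX7C (-0.342 ± 0.0496), and the most positive NDUFA4L2 (0.302 ± 0.121) and COX6A1 (0.28 ± 0.0314). COX4I1 was lower in all 6 groups (-0.285 ± 0.048), and COX5A was near 0 (-0.053 ± 0.0328). COX7A2 was at -0.31 ± 0.0414 and COX7B, a different subunit, at 0.223 ± 0.0318. COX7A2L, the relative of COX7A2, was at -0.0576 ± 0.0293. In complex V, ATP5MF had the most positive value of all members, 0.496 ± 0.0447. It stood at 97.4, 104 and 127 CPM in the first 31 libraries and at 113, 125 and 175 CPM in the last 29. The coupling factor ATP5PF came next (0.409 ± 0.0474), and the most negative were ATP5MC3 (-0.249 ± 0.0495) and ATP5ME (-0.249 ± 0.0616). Of the 3 genes for the same c subunit, ATP5MC2 was higher in all 6 groups (0.251 ± 0.0368), and ATP5MC1 (-0.226 ± 0.0448) and ATP5MC3 lower in all 6. The catalytic subunits ATP5F1A (-0.18 ± 0.0289) and ATP5F1B (-0.24 ± 0.0306) were lower in all 6.

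**Figure D4:**
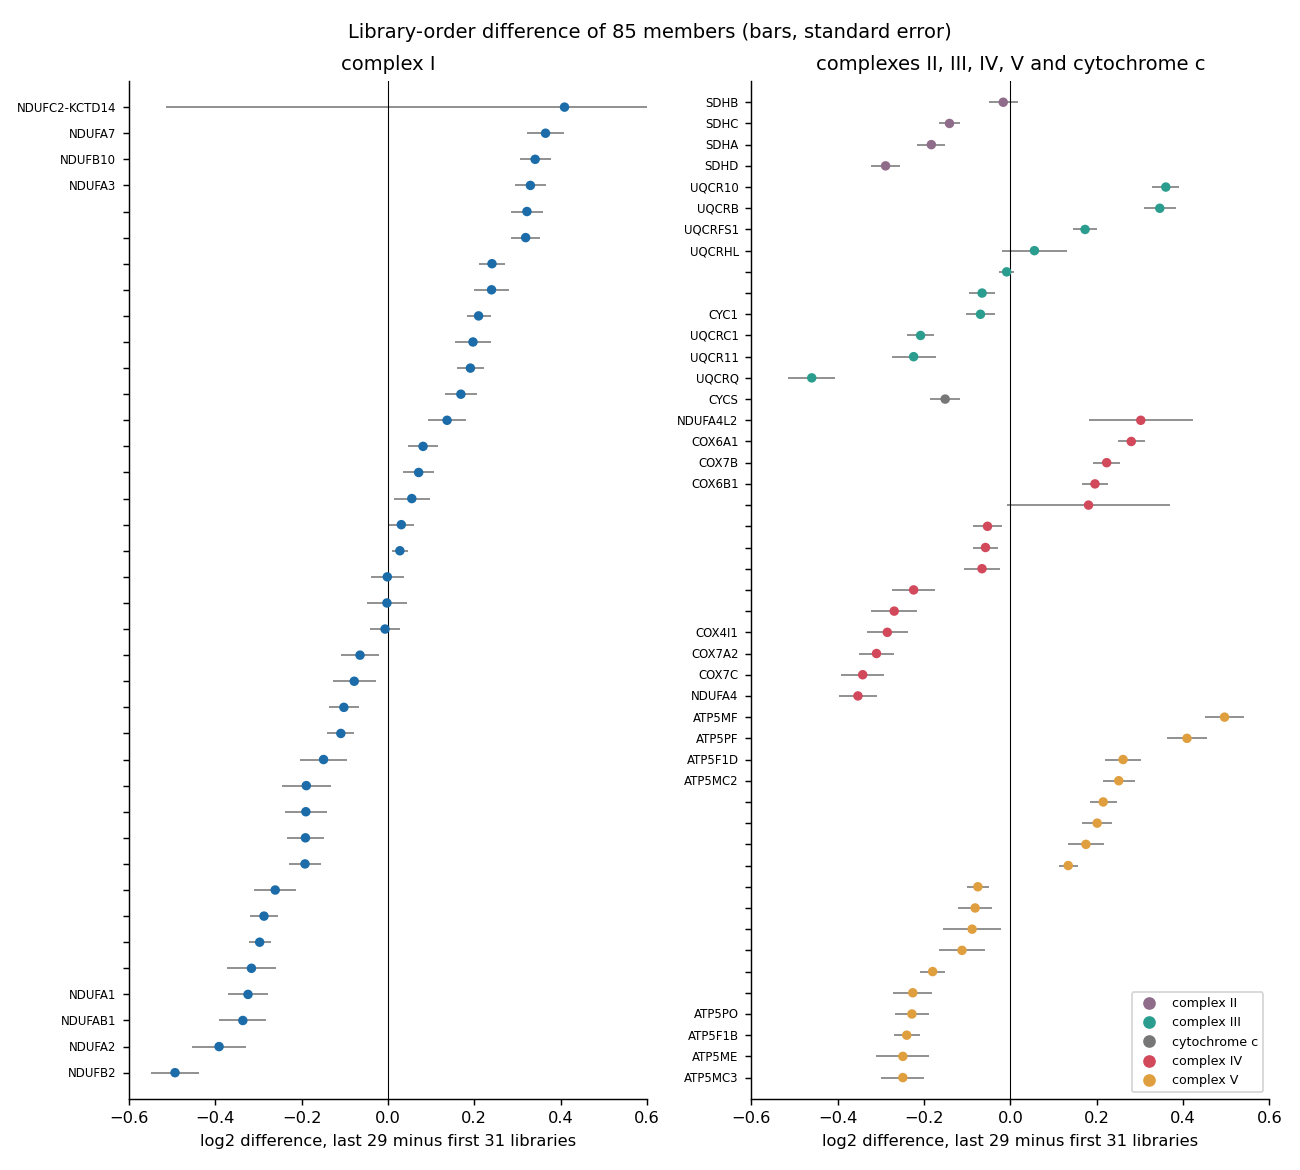
Log2 difference between the last 29 and the first 31 libraries for the 85 members, from a fit with extract and dose, with complex I on the left and the other complexes on the right. Bars are standard errors, and the 4 highest and 4 lowest genes of each complex are named; complexes I, III, IV and V each hold genes on both sides of 0, from NDUFB2 at -0.493 to ATP5MF at 0.496, and complex II lies below 0.

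The term for library order is estimated from the groups on both sides, whose later libraries are those at positions 32 to 39. It is taken in full from Soyo-san and Okbyeongpung-san, which lie at positions 40 to 60 with Soshiho-tang. There 62 of the 66 members with the same sign in all 6 groups differed less from the first 31 libraries than at positions 32 to 39. The median difference of the 27 higher members was 0.106 there against 0.223, and of the 39 lower -0.166 against -0.242. For ATP5MF it was 0.216 against 0.474 and for UQCR10 0.152 against 0.298. A smaller shift there and an extract effect cannot be told apart. With the term, 18 members were called with Soyo-san at 500 and 21 with Okbyeongpung-san at 500, where 11.7% and 12.5% of all genes were, led by ATP5MF (-0.437 and -0.52) and UQCR10 (-0.367 and -0.406), both of them genes higher after the boundary. At 100 and 20 µg/mL the term gave 11 and 10 calls with Soyo-san (7.18% and 4.56% of all genes) and 14 and 18 with Okbyeongpung-san (7.05% and 9.53%).

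For the extracts before the boundary or on both sides the term gave fewer member calls. They numbered 3, 4 and 1 with Menthae Herba at 500, 100 and 20, where 12.2%, 3.38% and 1.72% of all genes were called, and 7, 0 and 5 with Saposhnikoviae Radix (5.8%, 2.05% and 3.23%). They numbered 1, 1 and 0 with Saengmaek-san (2.18%, 1.03% and 0.979%) and 8, 2 and 1 with Guibi-tang (10%, 2.58% and 2.12%). Between 500 and 20 µg/mL edgeR with the term called 0 members in all 6 extracts, with background shares of 4.14%, 0.156%, 0%, 1.2%, 1.07% and 0.145% in the order of the dose comparison above (3, 3, 3, 2, 1 and 4 members at an unadjusted p under 0.05). At that p, 9 members passed with Saposhnikoviae Radix at 100 and 6 with Saengmaek-san at 20.

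The share of all counts that fell on the members also differed. It was 0.759% to 0.761% in vehicle, 0.74% to 0.8% in the first 31 libraries and 0.634% to 0.776% in the last 29, with medians of 0.762% and 0.7%. Counts of the mitochondrially encoded genes moved the opposite way, from 10.7% to 13.9% of all counts in the first 31 libraries and from 12.9% to 22.2% in the last 29. All 13 mitochondrially encoded subunits were higher after the boundary in all 6 groups, by 0.366 to 1.18 (median 0.744, log2). Their counts per member count averaged 11.5 ± 1 (SD, n = 31) before and 17.6 ± 3.58 (n = 29) after. With mitochondrial genes left out of the total, the member share averaged 0.868% ± 0.0148 and 0.828% ± 0.0295. In bulk RNA, fewer cells and less RNA per cell cannot be told apart, and a share can fall because other transcripts rose. Across members the difference had a Spearman rho of 0.101 with transcript GC share, -0.163 with transcript length and -0.0592 with level, given as a description over 85 genes that share the same libraries.

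**Figure D5:**
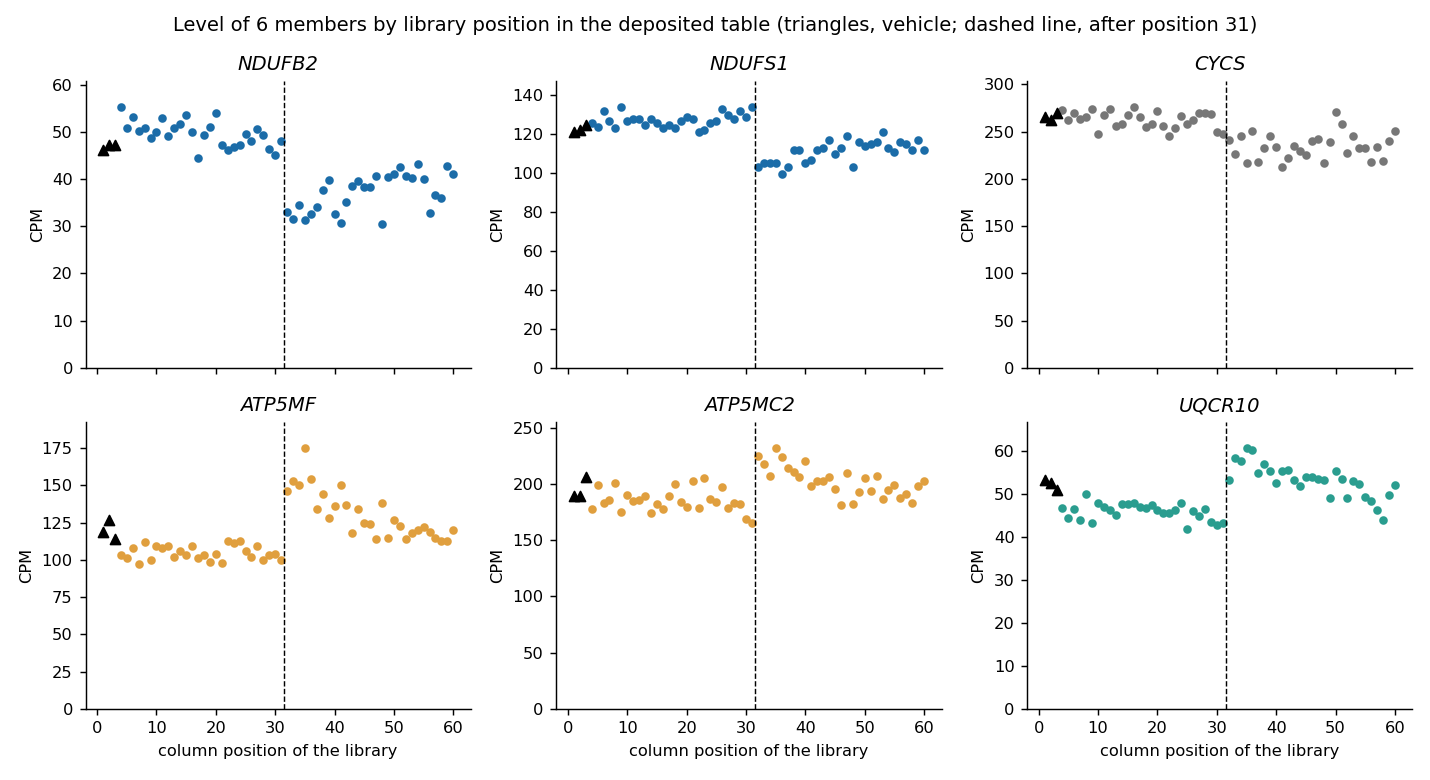
CPM of 6 members in 60 libraries by column position in the deposited table, with vehicle libraries as triangles and a dashed line after position 31. NDUFB2, NDUFS1 and CYCS drop at the line and ATP5MF, ATP5MC2 and UQCR10 rise; vehicle lies above the neighbouring libraries for ATP5MF and UQCR10.

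Within the first 31 libraries, the vehicle could be compared with both herbs and the early Saengmaek-san and Guibi-tang libraries without crossing the boundary. In this fit 13 of 85 members were called with Menthae Herba at 500 (15.3%), where 15.2% of all genes were, with 9 higher and 4 lower. The 3 largest rises were those of COX5B, a subunit of complex IV, the accessory subunit NDUFA1 and UQCRQ. COX5B (ENSG00000135940, chr2:97646040-97648383) stood at 57.9, 60.7 and 57.7 CPM in vehicle and at 70.5, 65.8 and 70.1 CPM with the extract, and rose by 0.227 ± 0.0531 (adjusted p = 0.00353). NDUFA1 rose by 0.184 ± 0.0393 and UQCRQ by 0.183 ± 0.0542 (adjusted p = 0.00158 and 0.0201). In all 3 genes the groups did not overlap. None of them was called in the comparison over all 57 libraries.

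Their mean levels stood above the vehicle mean at every dose of both herbs. UQCRQ averaged 54.5 ± 2.43 CPM (SD, n = 3) in vehicle and between 58.7 and 63.3 CPM in the 6 herb groups. NDUFA1 averaged 53.6 ± 2.26 CPM against 56.1 to 60.9 CPM, and COX5B 58.7 ± 1.69 CPM against 62.2 to 68.8 CPM. The differences from vehicle are thus not shown to belong to Menthae Herba at 500. All 3 genes were also lower after the boundary in all 6 groups. In each library the mean log2 level of the 39 members lower in all 6 groups was subtracted from that of the 27 higher. Relative to the mean of the first 31 libraries, this was 0.0742 to 0.146 in vehicle and -0.0559 to 0.0651 in the other 28. The part of library order in these rises was not tested.

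Other higher calls with Menthae Herba at 500 in this fit included NDUFV1 (0.177 ± 0.0386, adjusted p = 0.00189), COX5A (0.163 ± 0.0357, adjusted p = 0.002), and CYC1 (0.146 ± 0.0386, adjusted p = 0.0091). The lower calls were COX6B2 (-1.11), ATP5MF (-0.164), COX6B1 (-0.139) and UQCR10 (-0.137). Between 500 and 20 µg/mL of this extract the same libraries gave 1 member call of 85, where 5.03% of all genes passed. This fit of 500 against 20 was added after the data had been seen.

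With Saposhnikoviae Radix at 500, 11 of 85 members were called in the first 31 libraries, 10 of them lower, and with Guibi-tang at 500, where 2 of the 3 libraries remain, 9 were, all lower. Background shares were 9.39% and 10.5%. The lower calls with both included UQCR10, ATP5MF, NDUFA3, NDUFA6, COX6B1, NDUFS8 and ATP5F1C. SDHA and ATP5F1B were called with Guibi-tang only, at -0.133 ± 0.0434 and -0.0933 ± 0.0305. Whether the extracts differ in these genes was not tested.

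At the lower doses within the first 31 libraries, 8 and 4 members were called with Menthae Herba at 100 and 20, where 6.09% and 4.14% of all genes were, and 2 and 8 with Saposhnikoviae Radix (3.64% and 5.97%). NDUFA4 (0.114 ± 0.033) and NDUFA1 (0.151 ± 0.039) rose with Menthae Herba at 100 and UQCRQ (0.22 ± 0.0533) with Saposhnikoviae Radix at 100, and the other calls at these doses were lower. With Saengmaek-san the single call at each of 500, 100 and 20 was UQCR10 (background 2.13%, 1.15% and 1.08%). With Guibi-tang at 100 and 20, where 1 library of each remains and its spread is assumed to be that of the other groups, edgeR called 0 members (0.749% and 0.587% of all genes, and 15 and 8 members at an unadjusted p under 0.05). Between 500 and 20 no member was called on 1 side of the boundary for Saposhnikoviae Radix (0.173% of all genes), Saengmaek-san (0% on either side) or Guibi-tang (0.38% before it and 0.155% after). On the same assumption, Saengmaek-san after the boundary is 1 library against 1, and Guibi-tang 2 against 1 before it and 1 against 2 after it. No member was called after the boundary for Soyo-san (0.443%) or Okbyeongpung-san (0.0748%). At an unadjusted p under 0.05 these edgeR fits had 6, 3 and 6 members before the boundary for Saposhnikoviae Radix, Saengmaek-san and Guibi-tang. After it they had 1 each for Saengmaek-san, Guibi-tang and Soyo-san and 2 for Okbyeongpung-san.

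Some of these genes were called in comparison after comparison. UQCR10 was called lower than vehicle in 9 of the 12 comparisons, with log2 fold changes of -0.137 to -0.293, ATP5MF in 7, COX6B1 in 6, NDUFA3 in 5, and NDUFA6 and NDUFS8 in 4 each. All 12 use the same 3 vehicle libraries. UQCR10 stood at 53.2, 52.6 and 50.9 CPM in them and between 41.8 and 50 CPM (median 46.3) in the other 28 of the first 31 libraries, whatever their extract or dose. In the last 29 libraries its median was 53.4 CPM. The vehicle libraries likewise lay above all 28 for ATP5MF (114 to 127 against 97.4 to 113 CPM) and COX6B1 (279 to 287 against 238 to 271 CPM), and below all 28 for NDUFA2 (21.2 to 21.6 against 21.8 to 26.5 CPM). These 4 of 85 members had no overlap, where 2.85% of all genes had none. UQCR10, ATP5MF and COX6B1 are also among the members that were higher after the boundary. The vehicle libraries stood at positions 1 to 3 and were among the deepest, with 29047074 to 35308811 counts against 18330631 to 30893787 for the other 28, and the part of position or depth in these differences was not tested.

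Soshiho-tang, with 1 library per dose, was left out of the fit and is described with no test. Against the mean log2 level of the vehicle libraries the member median was -0.165 at 500, -0.083 at 100 and -0.0196 at 20 (log2). Members past 1.5-fold numbered 2, 1 and 1 of 85, where 9.16%, 6.28% and 6.66% of all genes were. NDUFC2-KCTD14 was one of them at each dose. It is near 0 counts, with 1 vehicle library at 0, and its CPM of 0.336, 0.381 and 0 at 500, 100 and 20 against a vehicle mean of 0.291 ± 0.253 (SD, n = 3) cannot be read as a change. The other at 500 was NDUFA4L2, a relative of NDUFA4 known as a target of hypoxia-inducible factor. NDUFA4L2 stood at 3.35 CPM at 500, 1.46 at 100 and 1.63 at 20, against 2.11, 1.44 and 1.82 CPM in vehicle and 1.02 to 3.35 CPM over all 60 libraries. Its value at 500 was the highest of all. Against the 18 libraries of Soyo-san and Okbyeongpung-san, which lie on the same side of the boundary, 17, 4 and 2 members lay outside the range at 500, 100 and 20, where 24.2%, 8.59% and 8.79% of all genes did.

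Other genes of mitochondrial energy supply, from lists drawn up with earlier results of these data known, gave few calls in the main comparisons. Of 49 assembly factors and 13 mitochondrially encoded subunits tested, edgeR called 0 in the 24 comparisons (87 of 1176 and 33 of 312 tests at an unadjusted p under 0.05), and DESeq2 called 1 assembly factor and 0 subunits. Of 14 enzymes of the tricarboxylic acid cycle, IDH2, the mitochondrial isocitrate dehydrogenase, rose with Menthae Herba at 500 (0.256 ± 0.0463, adjusted p = 0.000165) and between 500 and 20 of it (0.199 ± 0.0468, adjusted p = 0.00704), and rose with Soyo-san at 500 (0.155 ± 0.0463). Citrate synthase, CS, fell with Menthae Herba at 500 (-0.149 ± 0.0427), and fumarase, FH, fell with Soyo-san at 500 (-0.259 ± 0.0731). The calls of IDH2 and FH with Soyo-san lie across the boundary.

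Of 13 regulators of mitochondrial biogenesis tested, YY1 rose (0.121 ± 0.0297) and GABPB1 (-0.159 ± 0.0475) and the coactivator PPARGC1B (-0.244 ± 0.0744) fell with Menthae Herba at 500. The gene of the factor NRF1 fell with Soyo-san at 500 (-0.201 ± 0.0607) and Okbyeongpung-san at 500 (-0.235 ± 0.061), again across the boundary. Of 78 mitochondrial ribosomal protein genes, 4 were called in at least 1 comparison (MRPL17, MRPL51, MRPL15 and MRPS24, all lower), and of 81 cytosolic ones 1 was (RPL14, lower in 4). MRPS24 fell with Guibi-tang at 500, and the other calls were with Soyo-san or Okbyeongpung-san, across the boundary. The shares of all genes called in these comparisons are given above. Of the epithelial markers, KRT8 (-0.268 ± 0.0428), KRT18 (-0.286 ± 0.0638) and KRT19 (-0.27 ± 0.0618) fell with Menthae Herba at 500. KRT8 also fell with Guibi-tang at 500 and 100, Soyo-san at 500 and Okbyeongpung-san at all 3 doses. Its log2 fold changes there were -0.202 to -0.287. KRT18 (-0.231 ± 0.0638) and KRT19 (-0.257 ± 0.062) fell with Guibi-tang at 500. KRT19 fell with Menthae Herba at 100 (-0.259 ± 0.0612) and Soyo-san at 500 (-0.211 ± 0.0613). ALDH3A1 fell with Guibi-tang at 500 (-0.341 ± 0.0568), at 100 (-0.223 ± 0.0568) and between 500 and 20 (-0.226 ± 0.0569). Between 500 and 20 of Menthae Herba, KRT8 fell (-0.203 ± 0.0428) and COL1A1 rose (0.266 ± 0.0601). CDH1 rose with Soyo-san at 500 (0.189 ± 0.0596). The stromal marker COL1A1 rose with Menthae Herba at 500 (0.394 ± 0.0595) and 100 (0.318 ± 0.0594) and with Guibi-tang at 20 (0.231 ± 0.0599). The marker calls with Soyo-san and Okbyeongpung-san also lie across the boundary. The part of these markers in the member differences was not tested.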

How the data were processed

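The labels describe directional RNA sequencing of A549 cells. Per the submitters' processing notes, reads were handled with FastQC 0.11.9, Trim Galore 0.6.5, STAR 2.7.3a and RSEM 1.3.3 on hg38, also called GRCh38. The authors deposited expected counts for 60675 genes in 60 libraries. The annotation release and the strand setting are not given in the sources used here. Non-whole values made up 10.5% of the table, and all values were rounded before testing. No per-sample column was left out.

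Genes were filtered with filterByExpr (17256 kept) and scaled by TMM, and 57 libraries in 19 groups were fitted with edgeR 4.0.16 (quasi-likelihood, Benjamini-Hochberg, threshold 0.05) in R 4.3.3. Soshiho-tang stayed out of the fit. CPM values are unrounded expected counts scaled to a common TMM-adjusted library size. The library-order difference is a coefficient added to the fit. Standard errors are the fold change divided by the square root of F. Depth limits precision mainly for genes under 1 CPM. The edgeR steps were checked on simulated counts. Replicates were compared for duplicates over 57 pairs, and none agreed within sampling noise.

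Replicate numbers were checked for pairing by asking whether every same-numbered correlation of deviations was above 0.1. Of 24 comparisons only Saengmaek-san 500 against 20 met this (0.117, 0.193 and 0.345). At both of its doses replicate 3 lies after the boundary and the others before it. No pairing was used in the main fit. Alternatives were DESeq2 1.42.0, its size factors, no filter, a replicate block, the library-order term, the libraries of 1 side of the boundary, and leaving out each replicate.

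Genes are named by a written rule. It takes the 2 highest and 2 lowest of each complex per kb and by library-order difference. It also takes every called member, or the 3 highest and 3 lowest where over 6 were called, the isoform families, and 12 followed members. NDUFV1, COX5A and CYC1 with Menthae Herba, the genes called in several comparisons and those without overlap were named after their values were seen. The values of 1 called member are not reported here. The members and lists were chosen with earlier results of these data known.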

Additional observations from a re-analysis of the deposited data

How the results depend on the processing

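Size factors of DESeq2 within edgeR left the number of called members within 1.5 times in all 24 comparisons, and so did the replicate block, which gave 1 call with Menthae Herba at 500, 2 with Soyo-san at 500 and 2 with Soyo-san at 20 as without it. Leaving out 1 replicate gave 0 to 2 calls with Menthae Herba at 500, 0 to 1 with Guibi-tang at 100, 0 to 2 with Guibi-tang at 20, 0 to 1 with Soyo-san at 500, 0 to 4 with Soyo-san at 20 and 0 in the other comparisons. DESeq2 gave 1 call with Guibi-tang at 500, 4 with Soyo-san at 500, and 2, 1 and 1 with Okbyeongpung-san at 500, 100 and 20, with COX6B2 left without an adjusted p. With no filter on low counts, calls against vehicle numbered 3 for Menthae Herba at 100, 3, 1 and 2 for Saposhnikoviae Radix at 500, 100 and 20, 1 for Saengmaek-san at 500, 1, 3 and 3 for Guibi-tang, 16, 11 and 24 for Soyo-san and 11, 11 and 5 for Okbyeongpung-san, and between 500 and 20 they numbered 1 for Saengmaek-san and 2 for Guibi-tang. With the library-order term they numbered 3, 4 and 1 for Menthae Herba at 500, 100 and 20, 7 and 5 for Saposhnikoviae Radix at 500 and 20, 1 and 1 for Saengmaek-san at 500 and 100, 8, 2 and 1 for Guibi-tang, 18, 11 and 10 for Soyo-san and 21, 14 and 18 for Okbyeongpung-san. With the first 31 libraries only they numbered 13, 8 and 4 for Menthae Herba, 11, 2 and 8 for Saposhnikoviae Radix, 1, 1 and 1 for Saengmaek-san, 9 for Guibi-tang at 500, and 1 for Menthae Herba at 500 against 20, a comparison added after the data had been seen. With the last 29 libraries only, Soyo-san and Okbyeongpung-san at 500 against 20 stayed at 0. Over all genes, DESeq2 called 0.00267% to 9.19% and the fit with no filter 0.141% to 3.42%. The member share of counts, 0.747% at the median of all 60 libraries, became 0.856% without the mitochondrially encoded genes in the total. The causes of these shifts were not tested. Counts near 1 CPM, as for COX6B2, limit what the depth can show.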
